A study of Mus musculus with 12 samples.

Results

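The 60 mature miRNAs of the miR-379/miR-410 cluster, the large imprinted miRNA cluster of the Dlk1-Dio3 domain on mouse chromosome 12, were followed in the amygdala after fear memory formation, extinction and updating. Members were taken by name: every annotated line of the count table whose precursor carries one of 38 miR numbers of the cluster, both arms included. Lines were found for 33 of the 38 numbers, which gave 60 of the 1060 miRNAs in the table, 29 from the 5p arm and 31 from the 3p arm of their hairpins. Measured levels played no part in the choice. In the table analysed here miR-299b, miR-758, miR-679, miR-654 and miR-453 had no line.

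Small RNA was sequenced from the basolateral amygdala (BLA), the region in which a cue becomes linked to fear, of 12 male C57BL/6J mice of 10 weeks, 3 mice in each of 4 groups. Control mice (C) heard 3 tones and received 0 shocks. Mice of the memory formation group (F) heard 3 tones, each ending with a foot shock of 0.6 mA. Mice of the extinction group (E) had the training of the F group and, after 24 h, heard 18 tones without shock in each of 2 sessions. Mice of the retrieval-extinction group (RE, memory updating) received 1 tone as a retrieval trial 1 h before the same extinction sessions. The BLA of F, E and RE mice was taken 1 h after the last training, and that of controls at the same time as in F mice. E and RE tissue was thus taken later after conditioning than C and F tissue. In comparisons of E or RE with C or F, extinction, time and handling cannot be told apart. The paper names the differing behavioral procedures as a limit. No allele was altered in any group, and the labels call the tissue amygdala and number the RE libraries 3 to 5.

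The Dlk1-Dio3 domain is imprinted: its protein-coding genes are expressed from the paternal chromosome, and its long noncoding RNAs and miRNAs from the maternal one. The miR-379/miR-410 hairpins are thought to be cut from long maternal transcripts, of which Mirg is the annotated end, and to be expressed mostly in brain, where neuronal activity can raise the transcription of the cluster. Each hairpin can give a mature miRNA from either arm, and bases 2 to 8 of a mature miRNA, the seed, largely set which mRNAs it binds. Several members act at synapses or dendrites, and mice that lack the cluster have altered anxiety-like behavior.

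All 33 hairpins lay on the plus strand of chromosome 12, between 109709060 and 109743795 of GRCm38.p6, a span of 34.7 kb. The first hairpin was miR-379 (chr12:109709060-109709125) and the last miR-410 (chr12:109743715-109743795). Of the 33 hairpins 12 lay inside Mirg, a lincRNA at chr12:109729764-109749460, and 8 of these overlapped one of its exons. The other 21 lay upstream of Mirg and in no annotated gene other than those of the miRNAs.

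The most abundant member, miR-381-3p, is shown with its closest relative in the cluster, miR-300-3p, and with miR-539-3p, which has the same seed. Seeds are in capitals, and sequences are those of the deposited table, of which 56 of 60 were also found unchanged in RefSeq.
miR-381-3p: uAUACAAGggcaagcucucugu
miR-300-3p: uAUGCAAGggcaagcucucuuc
miR-539-3p: cAUACAAGgauaauuucuuuuu
Counted from 1 at the 5′ end, with the base of miR-300-3p first, miR-300-3p and miR-381-3p differ by G4A, U21G and C22U. The first of these lies in the seed, so that the pair does not share one, while miR-381-3p and miR-539-3p share AUACAAG. The hairpins of miR-300 (chr12:109724313-109724391) and miR-381 (chr12:109726822-109726896) are near neighbours upstream of Mirg.

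The 3p arms of the miR-376 members are shown because they are similar in sequence. One of them, miR-376b-3p, had the smallest unadjusted p of the members in each comparison with controls by edgeR's quasi-likelihood test. None of its adjusted p-values was under 0.05.
miR-376a-3p: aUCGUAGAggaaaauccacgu
miR-376b-3p: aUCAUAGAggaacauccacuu
miR-376c-3p: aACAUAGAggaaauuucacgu
With the base of miR-376b-3p first, it differs from miR-376a-3p by A4G, C13A and U20G. With the base of miR-376c-3p first, that miRNA differs from miR-376a-3p by A2U, A4G, U14A and U16C. Adenosines in miR-376 and miR-381 precursors are known to be edited to inosine in brain, which a sequencer reads as G. How the authors' alignment assigned reads that differ from a reference by 1 base was not found in the sources read. Levels of these similar members are uncertain to that extent.

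The arms of miR-329 are shown because they went in opposite directions between libraries, and miR-134-5p, miR-485-5p and miR-410-3p as members with known or shared roles.
miR-329-5p: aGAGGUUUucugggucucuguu
miR-329-3p: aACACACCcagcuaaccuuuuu
miR-134-5p: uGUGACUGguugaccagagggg
miR-485-5p: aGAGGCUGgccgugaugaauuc
miR-410-3p: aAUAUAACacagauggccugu
The 60 members had 57 different seeds. Besides AUACAAG, the shared seeds were AUGUAAC in miR-379-3p and miR-411-3p, and UGGAUAU in miR-376b-5p and miR-376c-5p. Outside the cluster, miR-362-3p has the seed of miR-329-3p, and miR-344d-3p and miR-344e-3p have that of miR-410-3p. The GC content of the members was 22.7% to 72.7%, with a median of 45.5%.

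The libraries held 1093194 to 2353896 counts each, and no count of 1 was present in any library. In 4 libraries, 1 of each group (C2, F1, E2 and RE4), let-7g-5p had the highest count, and in the other 8 it was miR-148a-3p. These 4 were separated from the 8 along the leading component of the log2 CPM, with 63.8% of the variance (next component 9.01%). The labels give no batch, and this split was noticed in the data. The neuronal miRNAs miR-9-5p, miR-128-3p and miR-124-3p summed to 62813 to 103931 CPM (counts per 1e+06, TMM-scaled). Nearly all of that sum was miR-128-3p and miR-9-5p, with miR-124-3p at 683 to 1329 CPM. By contrast miR-183-5p, miR-96-5p and miR-182-5p, markers of retina and sensory organs, summed to 48.8 to 571 CPM. The submitters' design note calls the profiles retinal, which was not resolved.

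The cluster took 3.63% to 10.9% of the counts of a library, and most of that was a single miRNA. The 3p arm of miR-381 held 64.4% of all member counts. miR-381-3p was at 83174, 14646 and 52049 CPM in C1, C2 and C3, at 18039, 54007 and 77872 CPM in F1, F2 and F3, at 72595, 17020 and 48761 CPM in E1, E2 and E3, and at 79148, 13748 and 67027 CPM in RE3, RE4 and RE5. Every group held 1 low library, C2, F1, E2 or RE4, and the groups overlapped throughout. With the 4 low libraries set aside the range was 48761 to 83174 CPM.

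**Figure D1:**
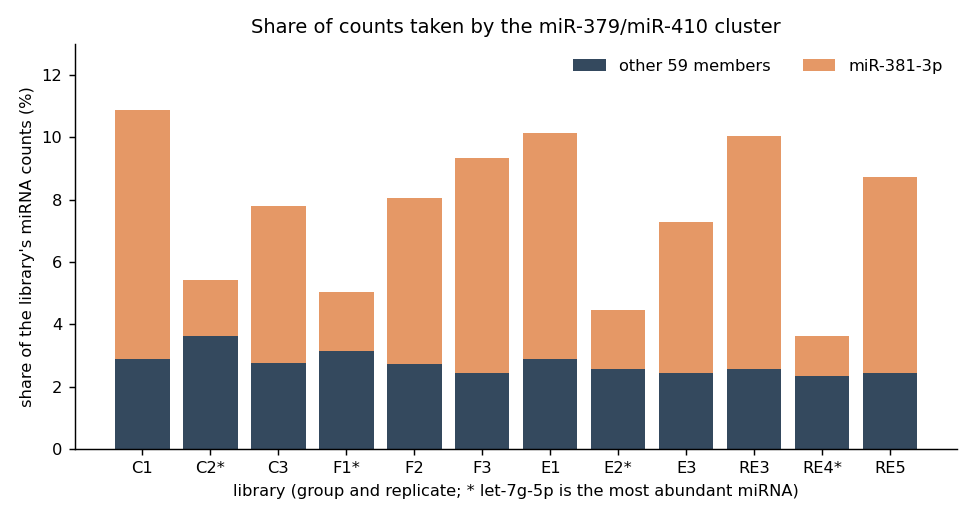
Share of each library's miRNA counts, in percent, taken by miR-381-3p (upper part of each bar) and by the other 59 members (lower part); an asterisk marks the libraries led by let-7g-5p. The whole bar was 3.63% to 5.43% in those 4 libraries and 7.27% to 10.9% in the other 8, while the 59 other members took 2.34% to 3.62% of counts in every library.

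The other 59 members took 2.34% to 3.62% of counts, and in this measure the 4 and the 8 libraries overlapped. Within the cluster, miR-381-3p took 33.3% to 42.9% of counts in the 4 libraries and 64.9% to 74.6% in the 8. The ratio of miR-381-3p to miR-300-3p counts, 2 sequences that differ at 3 of 22 bases, was 3.66 to 4.56 in the 4 libraries and 8.44 to 13.6 in the 8.

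Below miR-381-3p came miR-300-3p, with a mean CPM 9.25-fold lower, at 3700 to 7227 CPM. It was followed by miR-543-3p (2112 to 3790 CPM), miR-369-3p (2163 to 3909), miR-379-5p (1559 to 2902), miR-495-3p (1189 to 2837) and miR-382-5p (848 to 3031). Next were miR-410-3p (1116 to 1667), miR-409-3p (1044 to 1507) and miR-541-5p (421 to 1753). These ranges overlap between neighbours in the order, except that miR-381-3p lay above the rest in all 12 libraries. The first 10 members held 91.6% of member counts. A mean above 1000 CPM was found for 12 members, 100 to 1000 for 13, 10 to 100 for 16 and under 10 for 19.

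**Figure D2:**
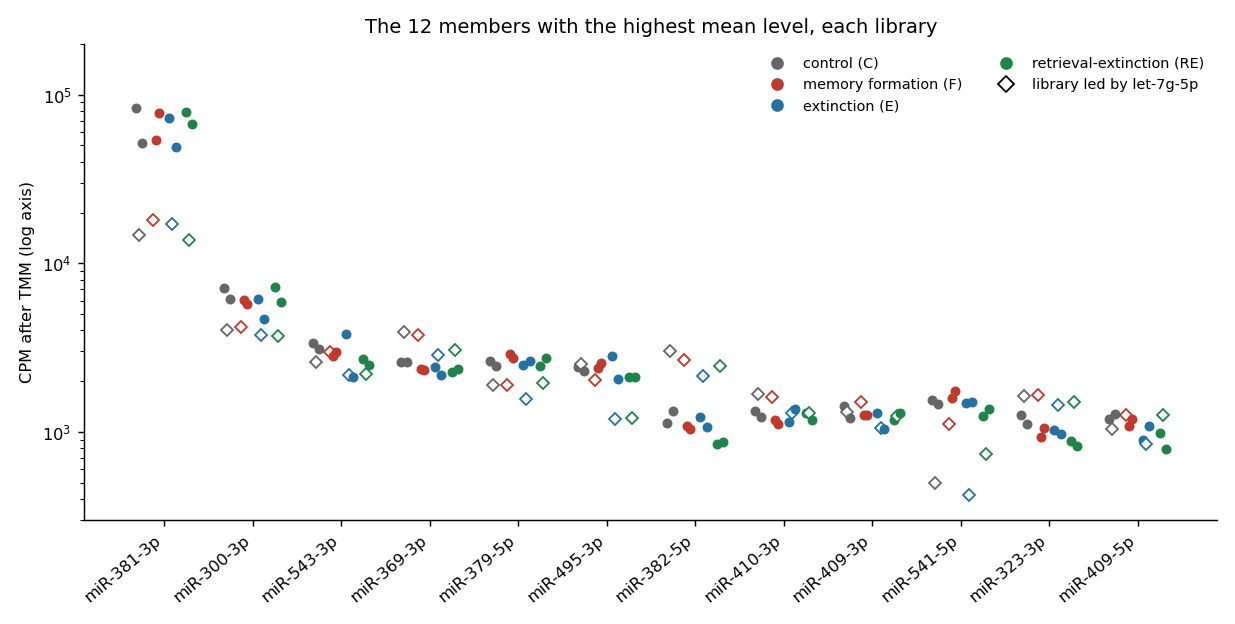
CPM after TMM scaling (log axis) of the 12 members with the highest mean, 1 point per library, coloured by group, with open diamonds for the libraries led by let-7g-5p. In every group the diamond was the lowest point for miR-381-3p, at 13748 to 18039 CPM, and the highest for miR-382-5p, at 2133 to 3031 CPM.

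Low members limit what could be tested. A minimum count of 10 as edgeR's filter uses it left 48 of the 60 members. The 12 members left out had 2 to 90 counts over all libraries. miR-495-5p and miR-376c-5p were each seen in 1 library, with 2 counts. No member was at 0 in every library. A count of 0 allows up to 3 counts, or 1.27 to 2.74 per 1e+06 counts of a library's total, and covers counting error only.

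Arm use differed widely between hairpins. Both arms were listed for 27 hairpins, of which 16 gave mostly the 3p arm and 11 mostly the 5p arm. In 16 the major arm exceeded the minor more than 10-fold. miR-379 gave 98.9% to 99.4% of its counts from the 5p arm over the 12 libraries, and miR-134 gave 92.0% to 97.9%. miR-409, whose arms were near balance, gave 37.9% to 51.3% from the 5p arm. The major arm was the same in all 12 libraries for 21 of the 27 hairpins.

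For miR-329 the major arm differed between libraries. The 5p arm, which does not carry the seed shared with miR-362-3p, took 24.8% to 34.2% of the hairpin's counts in C2, F1, E2 and RE4 and 56.9% to 62.9% in the other 8. miR-329-5p was at 125 to 162 CPM in the 4 and at 238 to 324 CPM in the 8, and miR-329-3p at 264 to 394 CPM in the 4 and 172 to 207 CPM in the 8. Neither pair of ranges overlaps. The share of the 5p arm was likewise apart for miR-376a (89.5% to 94.5% in the 4, 71.5% to 84.3% in the 8) and miR-376b (17.9% to 21.9% and 8.74% to 16.4%). In all it was apart for 9 of the 27 hairpins, several of which have a minor arm of few counts. How many hairpins outside the cluster were apart in arm share was not counted. In level, all 4 libraries lay above all 8 for 21.6% of all miRNAs tested and below for 20.2%.

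The first comparison asked what fear learning did to the cluster. In F against C, 0 of the 48 tested members had an adjusted p under 0.05 by edgeR's quasi-likelihood test, 0 had an unadjusted p under 0.05 by edgeR or by DESeq2, and 0 passed the study's criterion of a log2 fold change of 1 in size with an unadjusted p under 0.05. The criterion was passed by 1.16% of all miRNAs tested, and an unadjusted p under 0.05 was found for 1.86%. Log2 fold changes of members ran from −0.40 to 0.47 with a median of −0.07, beside 0.05 over all miRNAs tested. A value below 0 was found for 27 of 48 members, beside 41.3% of all miRNAs. The standard error of a member was 0.31 at the median, so that a change of the order of 0.5 could not be told from 0 for a typical member.

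The E and RE groups shared their control libraries with F. In E against C the members' median was −0.18, beside 0.01 over all miRNAs, and 39 of 48 lay below 0, beside 49.4% of all. In RE against C the median was −0.14, beside 0.06, and 36 of 48 lay below 0, beside 44.1%. By edgeR's quasi-likelihood test and by DESeq2 0 members had an adjusted p under 0.05 in either comparison. The criterion was passed by 0 members in each, beside 0.696% of all miRNAs in E against C and 2.78% in RE against C. An unadjusted p under 0.05 was found for 1 member in E against C and 3 in RE against C by edgeR, beside 1.62% and 5.57% of all miRNAs, and for 1 and 2 members by DESeq2. With plain library totals in place of TMM, the median in RE against C was −0.32 and in F against C −0.19. Without C2, one of the 4 libraries led by let-7g-5p, it was −0.08 in E against C, with 30 of 48 members below 0. The neuronal list summed to 62813 to 93115 CPM in C, 71975 to 79094 in E and 92521 to 96983 in RE, so that E and RE each overlapped C. The oligodendrocyte list (miR-219a-5p, miR-219a-2-3p and miR-338-3p, 3 of 3 found, nearly all of it miR-219a-2-3p) summed to 2948 to 3518 CPM in C and 3635 to 3725 in E, with every E library above every control, and to 3181 to 5046 in RE. The part of these markers in the medians was not tested. Since the tissue was bulk, a difference in the cells present and a difference in these miRNAs per cell cannot be told apart.

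**Figure D3:**
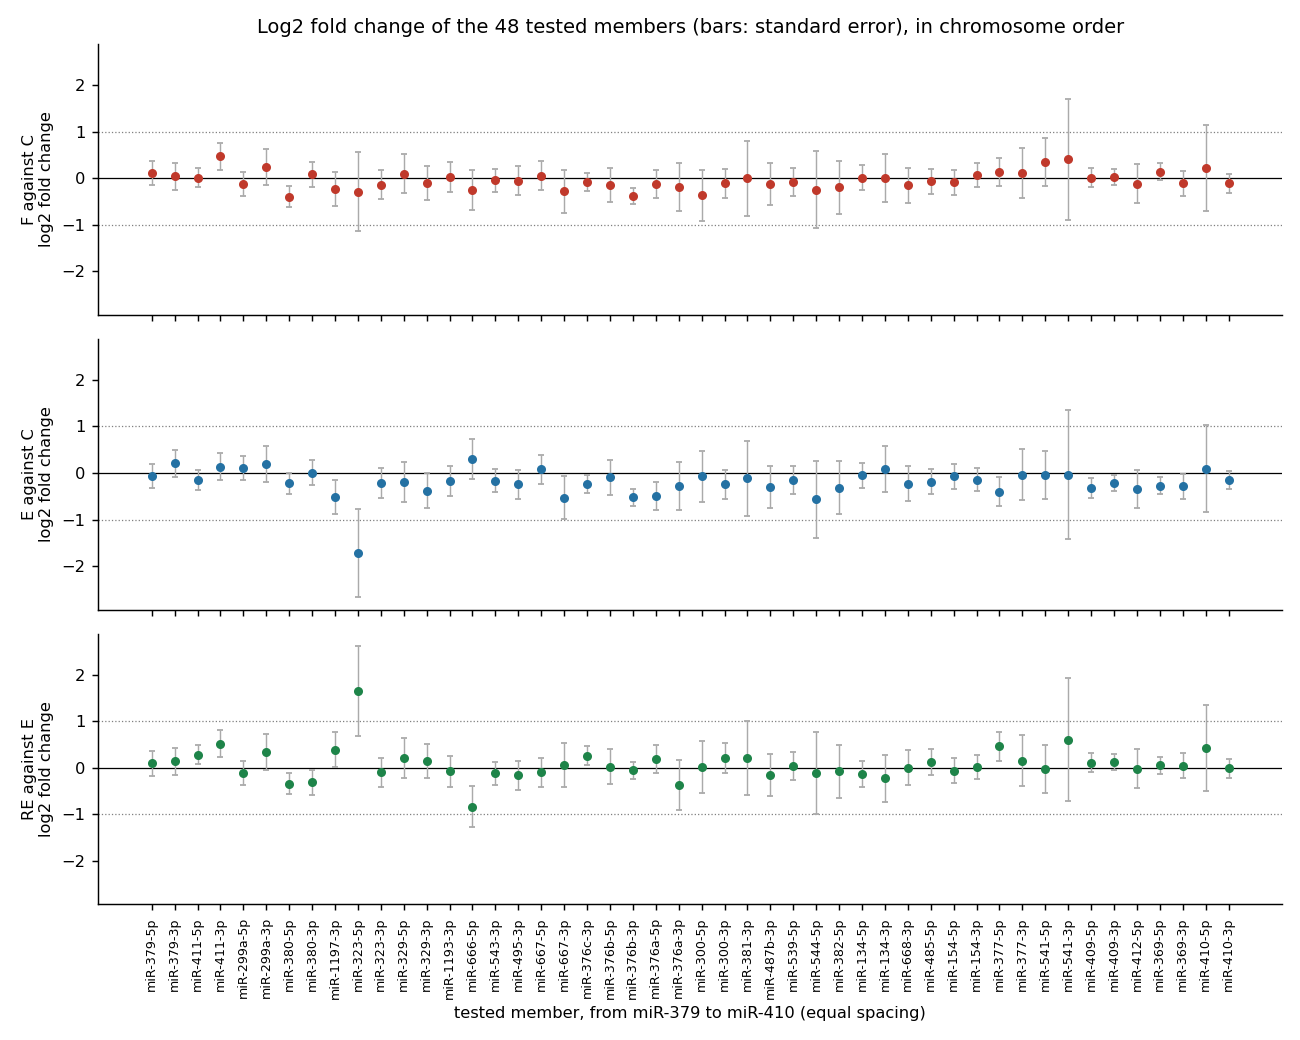
Log2 fold change of the 48 tested members in F against C, E against C and RE against E, ordered along the chromosome from miR-379 to miR-410; bars are standard errors and dotted lines mark a log2 fold change of 1 in size. In E against C 39 of 48 points lie below 0, with a median of −0.18, and miR-323-5p, a member of few counts, is at −1.72 and at 1.65 in RE against E.

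The member farthest from its controls relative to its error was miR-376b-3p. It was at 312, 266 and 346 CPM in C1, C2 and C3, at 259, 251 and 199 CPM in F1, F2 and F3, at 208, 217 and 217 CPM in E1, E2 and E3, and at 196, 206 and 216 CPM in RE3, RE4 and RE5. All 9 libraries of trained mice lay below all 3 controls, with the closest pair C2 and F1, both led by let-7g-5p. That reading of 9 against 3 was chosen after the values were seen. It held for miR-376b-3p alone among the 48 tested members and among all miRNAs tested, or 0.232% of them. The reverse, all 9 above all 3 controls, was also met by 0.232% of all miRNAs tested, and by 0 members.

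Its group means were 308 ± 40.1 CPM in C, 236 ± 32.3 in F, 214 ± 4.82 in E and 206 ± 9.83 in RE (SD, n = 3). The log2 fold change was −0.38 (SE 0.18) in F, −0.53 (SE 0.18) in E and −0.58 (SE 0.18) in RE, each against C. Unadjusted p-values from edgeR's quasi-likelihood test were 0.0567, 0.0144 and 0.00856, and the values adjusted over all miRNAs tested were 0.9997, 0.997 and 0.744. None passed the adjusted threshold. With a replicate block, which could be fitted for F and E, the unadjusted p-values were 0.160 and 0.0691. With a term for the 4 libraries, chosen after seeing the data, the log2 fold changes were −0.38, −0.52 and −0.58 and the adjusted p-values 0.504, 0.380 and 0.0587. Fitted within the 8 libraries led by miR-148a-3p they were −0.58, −0.65 and −0.70, with adjusted p-values of 0.331, 0.286 and 0.0772. DESeq2 gave −0.41, −0.54 and −0.61, with an adjusted p of 1 in each.

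For miR-376c-3p, miR-376a-3p and miR-376a-5p the trained and control libraries overlapped. miR-376c-3p was at 259, 294 and 204 CPM in C, at 237, 259 and 221 CPM in F, at 225, 201 and 217 CPM in E, and at 240, 226 and 305 CPM in RE. These groups overlapped, except that every RE library lay above every E library. Its log2 fold change was 0.03 (SE 0.20) in RE against C, and the sign changed with the scaling. miR-376a-3p, the lowest of the 3, was at 15.3, 12.9 and 35.2 CPM in C and at 16.4, 6.15 and 17.1 CPM in RE, with −0.66 (SE 0.53) between them, −0.13 without C3 and −0.32 without RE4. miR-376a-5p had group means of 106 ± 40.8 in C, 98.0 ± 23.4 in F, 75.9 ± 10.1 in E and 86.3 ± 19.9 CPM in RE (SD, n = 3), and its libraries overlapped in all comparisons with C. Whether miR-376b-3p differs in its change from these members was not tested.

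**Figure D4:**
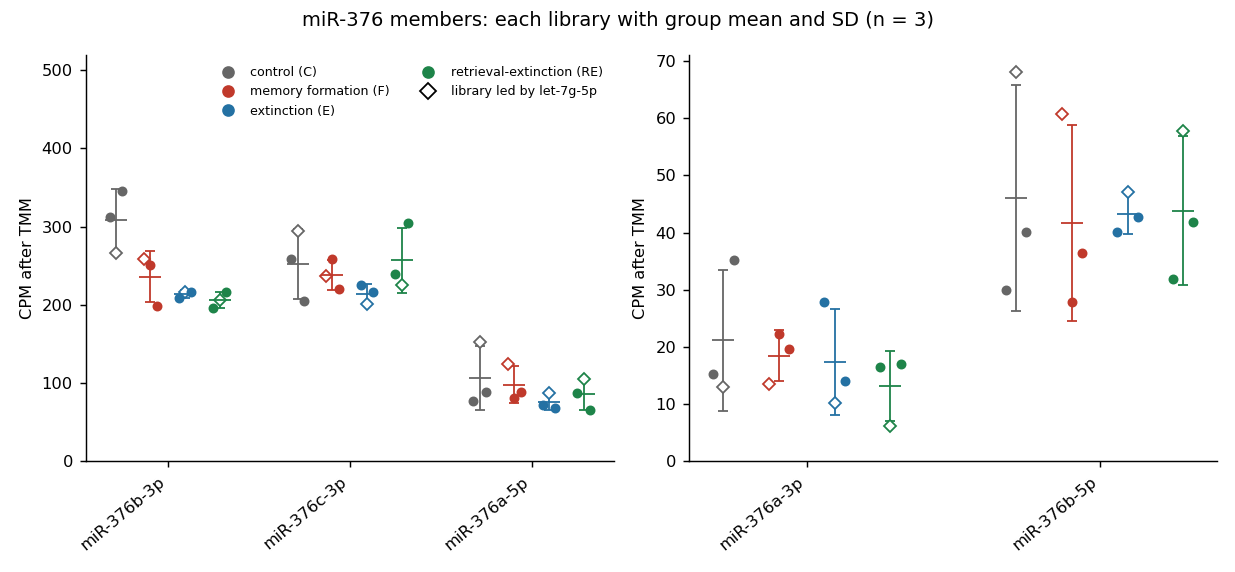
CPM after TMM scaling of 5 miR-376 members by library, with the group mean and SD (n = 3); open diamonds are the libraries led by let-7g-5p. For miR-376b-3p the 3 control libraries (266 to 346 CPM) lie above the 9 others (196 to 259 CPM), whereas for the other 4 members shown the controls overlap each trained group.

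Another member, miR-380-5p, whose hairpin lies near the start of the cluster, was at 171, 176 and 195 CPM in C, at 130, 150 and 132 CPM in F, at 206, 108 and 151 CPM in E, and at 118, 122 and 126.8 CPM in RE. All F and all RE libraries lay below all controls, and the E libraries spanned both. Its log2 fold change was −0.40 (SE 0.23) in F and −0.56 (SE 0.23) in RE against C, with unadjusted p-values of 0.116 and 0.0345 by edgeR's quasi-likelihood test and an adjusted p of 0.744 in RE. miR-411-3p went the other way in RE. It was at 18.8, 15.3 and 18.7 CPM in C and at 30.0, 26.9 and 25.9 CPM in RE, which did not overlap. The log2 fold change was 0.65 (SE 0.29), with an edgeR unadjusted p of 0.0471 and an adjusted p of 0.872. Its seed twin miR-379-3p differs from it by U10C and U22C, with its own base first, and was at 19.5, 17.2 and 14.5 CPM in C and at 28.1, 16.9 and 20.4 CPM in RE, which overlapped.

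Counting members whose libraries did not overlap between groups gave 2 below and 0 above in F against C, 2 below and 0 above in E against C, and 3 below and 1 above in RE against C. Over all miRNAs tested the same counts were 1.39% below and 3.02% above in F, 1.39% and 2.78% in E, and 2.09% and 5.57% in RE. The members below were miR-376b-3p in all 3, miR-380-5p in F and RE, miR-369-5p in E and miR-495-3p in RE. miR-495-3p, which is known to bind the mRNA of the neurotrophin Bdnf, was at 2413, 2513 and 2300 CPM in C and at 2107, 1212 and 2120 CPM in RE. The lowest of these is RE4, one of the 4 libraries led by let-7g-5p, and the log2 fold change of −0.41 (SE 0.31) had an edgeR unadjusted p of 0.218 and was −0.18 without RE4.

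Between the trained groups no member passed a threshold either. In E against F their median was −0.15, beside −0.08 over all miRNAs, with 39 of 48 below 0, beside 60.3%. In RE against F it was −0.10, beside 0.00, with 33 of 48 below 0, beside 49.7%. In RE against E, the comparison of memory updating with plain extinction, it was 0.03, beside 0.05, with 20 of 48 below 0, beside 42%. With library totals in place of TMM the median in RE against E turned to −0.12, with 33 of 48 below 0, and without RE4 it was −0.047. The ranges of both the neuronal and the oligodendrocyte list were apart in E against F. In RE against E the neuronal list alone was apart, and in RE against F the oligodendrocyte list alone. The neuronal list summed to 83497 to 103931 CPM in F, above every E library (71975 to 79094), and RE (92521 to 96983) was also above E. The oligodendrocyte list summed to 1927 to 2969 CPM in F, below every library of E (3635 to 3725) and RE (3181 to 5046). Their part in the members' values was not tested. In each of the 3 comparisons 0 members had an adjusted p under 0.05 by edgeR or DESeq2 and 0 passed the criterion, beside 1.62%, 0.696% and 0.928% of all miRNAs. By edgeR 1, 0 and 0 members had an unadjusted p under 0.05, beside 3.71%, 2.09% and 2.32% of all miRNAs, and by DESeq2 0, 0 and 0. Libraries that did not overlap between the groups were found for 2 members, both below, in E against F and in RE against F, beside 3.48% and 2.55% of all miRNAs below. In RE against E 3 members lay above, namely miR-411-3p, miR-323-5p and miR-376c-3p, beside 4.18% of all.

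The member with an unadjusted p under 0.05 in E against F was miR-369-5p, named here after its values were seen. It was at 325, 275 and 233 CPM in F1, F2 and F3, and at 216, 210 and 201 CPM in E1, E2 and E3. All 3 E libraries lay below all 3 F libraries. The log2 fold change was −0.41 (SE 0.18), with an edgeR unadjusted p of 0.0485 and an adjusted p of 0.996. With a replicate block the unadjusted p was 0.128. Its 3p partner, miR-369-3p, lies inside Mirg like the 5p arm and had 51082 counts over all libraries, beside 4452 for the 5p arm. E and F overlapped for it, at 2163 to 2870 and 2319 to 3743 CPM.

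In RE against E, miR-666-5p had the smallest unadjusted p of the members. It was at 29.3, 10.9 and 14.0 CPM in E and at 14.5, 5.38 and 10.5 CPM in RE, which overlapped. The log2 fold change was −0.84 (SE 0.44), with an edgeR unadjusted p of 0.0848 and an adjusted p of 0.999. The widest difference was that of miR-323-5p, with 3, 5 and 2 counts in E1, E2 and E3 and 5, 13 and 12 in RE3, RE4 and RE5. Its log2 fold change was 1.65 (SE 0.97) in RE against E and −1.72 (SE 0.95) in E against C, with edgeR unadjusted p-values of 0.118 and 0.0992 and adjusted p-values of 0.999 and 0.997. With the term for the 4 libraries it passed the study's criterion in both, at 1.75 and −1.62, with adjusted p-values of 0.224 and 0.649. It also passed the criterion in E against C without C3 (−2.18) or without F1 (−1.76), and in F against C without F1 (−2.02), whereas in E against C it was −0.72 without C2. miR-666-5p passed it in RE against E without E2 (−1.12) or without RE3 (−1.21), whereas its value was −0.38 without E1 and −0.54 without RE4.

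miR-134-5p, which limits the size of dendritic spines in rodent hippocampal neurons, was at 137 ± 44.7 CPM in C, 138 ± 13.7 in F, 133 ± 21.5 in E and 121 ± 30.5 in RE (SD, n = 3). Its log2 fold change was 0.01 (SE 0.27) in F, −0.05 (SE 0.27) in E and −0.18 (SE 0.27) in RE, each against C, with a sign in F and E that changed under other settings. miR-485-5p, known to act on the synaptic vesicle protein SV2A in rat neurons, was at 243 ± 36.8, 232 ± 68.8, 214 ± 39.9 and 233 ± 59.2 CPM in C, F, E and RE (SD, n = 3). Its values against C were −0.07, −0.18 and −0.06 (SE 0.27 each), and without C2 that in E was −0.017. For miR-381-3p the standard error was 0.80, and its values of −0.12 in E and 0.09 in RE against C carry little information for that reason. By edgeR's quasi-likelihood test the adjusted p-values of these 3 members were 0.996 or above in all 6 comparisons.

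The libraries in which miR-381-3p was low were the 4 that stood apart over all miRNAs, and other members there were high. The mean log2 CPM of the 4 minus that of the 8 ran from −2.52 (miR-541-3p) to 1.56 (miR-410-5p) over the 48 members, with a median of 0.03, 25 above and 23 below 0. These values describe libraries grouped after the data were seen and carry no test. All 4 libraries lay above all 8 for 11 members, or 22.9%, beside 21.6% of all miRNAs tested, and below for 8 members, or 16.7%, beside 20.2%. Those below included miR-381-3p (−2.06), miR-541-5p (−1.21), miR-329-5p (−0.99) and miR-300-3p (−0.64). Those above included miR-382-5p (1.27), miR-487b-3p (0.98), miR-667-3p (0.96) and miR-329-3p (0.79). miR-541-3p was counted at 0 in C2, E2 and RE4 and at 4.76 to 11.0 CPM in the 8 libraries.

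**Figure D5:**
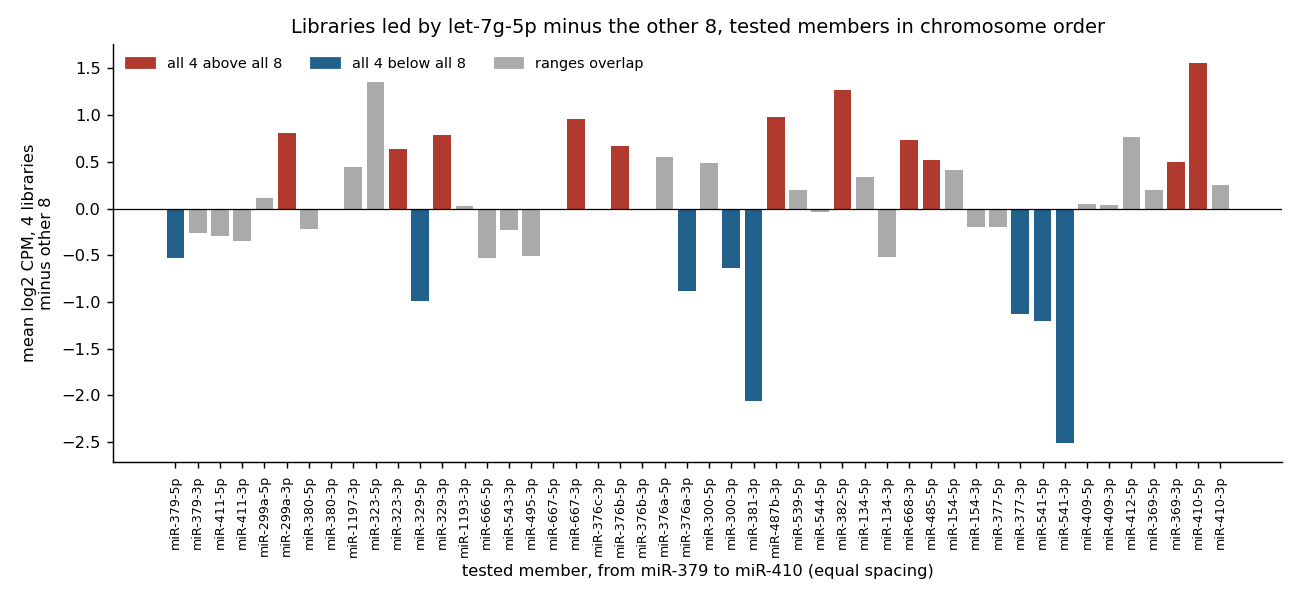
Mean log2 CPM of the 4 libraries led by let-7g-5p minus that of the other 8 for the 48 tested members in chromosome order, coloured by whether all 4 lie above all 8, all 4 lie below, or the ranges overlap. Neighbours and arms of 1 hairpin point in both directions: miR-329-5p is at −0.99 and miR-329-3p at 0.79, and values run from −2.52 to 1.56.

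Within the 8 libraries led by miR-148a-3p, miR-381-3p was at 83174 and 52049 CPM in C, 54007 and 77872 in F, 72595 and 48761 in E, and 79148 and 67027 in RE, so that the groups overlapped there too. Among the 4, C2, F1, E2 and RE4 were at 14646, 18039, 17020 and 13748 CPM, 1 library for each group. The part of library preparation or of tissue in this split was not tested. Of the marker lists summed, only that of endothelium and vessel wall (miR-126a-3p, miR-143-3p and miR-145a-5p, 3 of 3 found) was apart. It summed to 7615 to 16040 CPM in the 4 and 17818 to 37474 CPM in the 8. Among all miRNAs tested, 20.2% likewise had all 4 libraries below all 8. The neuronal list, 3 of 3 found, overlapped at 62813 to 96983 and 71975 to 103931 CPM. The oligodendrocyte, erythrocyte, choroid plexus and retina lists overlapped too.

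Members were also split by whether their hairpin lies inside Mirg. The 18 tested members inside Mirg had a median log2 fold change of 0.01 in F, −0.17 in E and −0.14 in RE against C, beside −0.10, −0.18 and −0.13 for the 30 upstream of it. In RE against E both medians were 0.03.

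The other miRNAs of the Dlk1-Dio3 domain, which lie upstream near Meg3, Rtl1 and Rian, were taken as a list of 18 numbers with 32 miRNAs, of which 20 were tested. By edgeR's quasi-likelihood test 0 of the 20 had an adjusted or an unadjusted p under 0.05 in any of the 6 comparisons, and by DESeq2, which kept all 32, 0 had either. Their median log2 fold change was −0.06 in F, −0.22 in E and −0.08 in RE against C, −0.17 in E against F, −0.01 in RE against F and 0.08 in RE against E.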

How the data were processed

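Small RNA was sequenced for 50 cycles from the BLA of 12 mice. Per the study's methods the authors trimmed adapters with Cutadapt, predicted further miRNAs with miRDeep2, used Novoalign against mouse miRNA precursors and deposited whole-number counts of tags per mature miRNA and library. Per the submitters' processing notes the tools include CASAVA 1.8 and the build is hg38, a human build. Which release of the miRNA reference was used is not given in those sources. A deposited sheet of normalized values was not used. Lines that repeated the sequence and counts of another (109 of 1169) were counted once.

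The counts were fitted with edgeR 4.0.16 in R 4.3.3 (TMM, filterByExpr with a minimum count of 10, quasi-likelihood test, all 12 libraries in 1 fit), with Benjamini-Hochberg adjustment over 431 miRNAs. "Rose" or "fell" would need an adjusted p under 0.05. The standard error of a log2 fold change is its size divided by the square root of the F statistic. CPM are counts per 1e+06 of the TMM-scaled library. The fitting functions were run on simulated counts whose spread was set below that of these libraries and which held no split of libraries. That run therefore says nothing on the power of the fits reported here. Library totals were 1093194 to 2353896, and replicates differed by more than counting error (chi-square per degree of freedom 34.4 to 1005). Reads carry no molecular identifiers. P-values measure the spread between libraries of a group, which come from different mice, and that spread includes the split of libraries. The common dispersion, edgeR's measure of it, was 0.184 without a term for that split and 0.0294 with one. How much of the spread lies between mice was not tested.

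Hairpin positions and RefSeq sequences are of GRCm38.p6, and Mirg is as GENCODE M21 annotates it. Miscalled or edited bases were not examined. Members, lists and tests were chosen with earlier results of these data known. Members named are the 10 of highest mean CPM, the 3 of smallest p in F against C, E against C and RE against E, any past a threshold, and a list with known roles or shared sequences. Others are named where a count of 5 or fewer, a shared seed or the library split turns on them, after their values were seen.

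Same-numbered libraries of E and C deviated together (correlations 0.453, 0.736 and 0.546). So did differently numbered ones, E1 with C3 (0.576) and E3 with C1 (0.501). In both groups number 2 marks the library led by let-7g-5p, and the others are led by miR-148a-3p. Same-numbered libraries of F and C (−0.724, −0.533 and 0.628) and of E and F did not all deviate together. RE shares only number 3 with the other groups. Alternatives were DESeq2 1.42.0, its size factors, library totals, no filter (minimum count 1), a stricter filter (mean count 50), annotated miRNAs alone, 2 groups alone, a replicate block and each library left out. A term for the 4 libraries led by let-7g-5p and a fit of the other 8 were chosen after seeing the data.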

Additional observations from a re-analysis of the deposited data

How the results depend on the processing

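In all 22 alternatives 0 members had an adjusted p under 0.05 in any comparison in which the fit could be made. With the term for the 4 libraries, more members had an unadjusted p under 0.05 by edgeR's quasi-likelihood test. There were 3, 6 and 8 in F, E and RE against C, in place of 0, 1 and 3. In E against F, RE against F and RE against E there were 3, 2 and 3, in place of 1, 0 and 0. Shares over all miRNAs were not counted under that term, which was chosen after seeing the data. The common dispersion over all miRNAs was 0.0294 with the term and 0.184 without it. These counts are therefore not read as a result about the members. For the 22 log2 fold changes of members followed through the 22 alternatives, 45 of 461 values had the other sign, 33 of these with a library left out. Other settings turned the sign for miR-376c-3p in RE against C (DESeq2 −0.0012, its size factors −0.015, library totals −0.16, stricter filter −0.020, annotated miRNAs alone −0.015) and for miR-134-5p in F against C (DESeq2 −0.017, its size factors −0.029, library totals −0.14, stricter filter −0.075, annotated miRNAs alone −0.071, 2 groups alone −0.021). In E against C miR-134-5p was at 0.29 within 8 libraries.

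Leaving out 1 library gave −0.19 to 0.12 for miR-376c-3p in RE against C and −2.02 to 0.67 for miR-323-5p in F against C. For miR-134-5p it gave −0.19 to 0.30 in F, −0.22 to 0.28 in E and −0.39 to 0.085 in RE against C. For miR-485-5p it gave −0.37 to 0.049 in F, −0.37 to −0.017 in E and −0.28 to 0.033 in RE against C, and for miR-381-3p −0.58 to 0.47 in E and −0.39 to 0.66 in RE against C. It gave −0.97 to −0.13 for miR-376a-3p and −0.60 to −0.18 for miR-495-3p in RE against C, −2.18 to −0.72 for miR-323-5p in E against C and −1.21 to −0.38 for miR-666-5p in RE against E. The values of miR-376b-3p stayed below 0, at −0.50 to −0.32 in F, −0.59 to −0.46 in E and −0.71 to −0.54 in RE against C.

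The median over members moved by more than 0.0733, the spread of library medians within groups, with library totals (F against C −0.19, RE against C −0.32, E against F −0.065, RE against E −0.12), the stricter filter (F against C −0.15, RE against C −0.25), annotated miRNAs alone (F against C −0.15) and the 8 libraries (E against F −0.025). With 1 library left out it was −0.19 to 0.016 in F against C, −0.28 to −0.077 in E against C, −0.30 to −0.11 in RE against C, −0.18 to −0.019 in RE against F and −0.047 to 0.041 in RE against E. The criterion was passed by 0 to 1 members with 1 library left out in F against C, E against C and RE against E, and by 1 member in E against C and in RE against E with the library-set term. The stricter filter left 30 members in place of 48, so its median covers another set of members. Medians over all miRNAs under these settings are not given. The cause of these shifts was not tested.

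With the replicate block the members' median was −0.05 in F against C, −0.18 in E against C and −0.18 in E against F, and 0 members had an adjusted p under 0.05. Under the block 0 members had an unadjusted p under 0.05 in E against C and in E against F, in place of 1 in each: miR-376b-3p went to 0.0691 and miR-369-5p to 0.128. The block could not be fitted for RE, which shares 1 number with the other groups. Members under about 10 counts per library and miR-381-3p, whose level differs between the 4 and the 8 libraries, are the least certain.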
